A study of Mus musculus with 8 samples.

Results

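Galectins are sugar-binding proteins, and the 6 genes described here, Lgals1, Lgals3, Lgals3bp, Lgals4, Lgals8 and Lgals9, encode galectins of each structural class and a secreted glycoprotein that galectin-3 binds. They were chosen by name, with earlier results of this same comparison in view, so their own values are given below as a description. In the deposited table of 136535 Ensembl transcripts, which gave 54116 genes, the 6 genes comprised 34 transcripts, and all of their annotated transcripts were listed. The cells were mesenchymal stromal cells (MSCs) of C57BL/6J mice, cultured connective tissue cells that can give rise to fat cells and fibroblasts. The pMSCs came from the pancreas (4 libraries) and the iwatMSCs from inguinal white adipose tissue, the fat pad of the groin (4 libraries). In both groups the study took the organs of the same untreated males, 8 weeks old and on standard diet, sorted the cells for SCA1 and against CD31 and CD45, pooled those of 3 to 5 mice and expanded them for 4 days. Pools of expanded cells limit both groups as a model of the organ, because levels in single mice and in fresh cells were not measured, and the organs were digested with collagenase at different concentrations, which cannot be told apart from the organ of origin.

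The sort could be followed in the libraries. Ly6a, which encodes SCA1, had 73.0 to 114 FPKM (fragments scaled for transcript length and library size) in pMSCs and 79.4 to 202 FPKM in iwatMSCs, Ptprc (CD45) was at most 0.0327 FPKM and Pecam1 (CD31) at most 0.482 FPKM in any library. The 8 stromal markers, collagens and decorin among them, summed to 1303 to 1527 in pMSCs and 1259 to 1936 FPKM in iwatMSCs. Transcripts of 10 pancreatic acinar enzymes summed to 57.5 to 314 in pMSCs and 1.81 to 3.71 FPKM in iwatMSCs, with replicates 1 and 2 of the pMSCs highest. The 8 epithelial markers summed to 17.4 to 42.7 in pMSCs and 5.86 to 14.7 FPKM in iwatMSCs. Krt19 made up nearly all of the iwatMSC sum and was lower in pMSCs (2.41 to 3.80 FPKM, against 5.69 to 14.4 FPKM in iwatMSCs), while the keratin Krt8 and the claudin Cldn4 were listed at 0 in all iwatMSCs. The 6 endothelial markers summed to 2.42 to 3.74 in pMSCs and 7.36 to 9.67 FPKM in iwatMSCs, of which Tek, an angiopoietin receptor, had 1.84 to 2.69 FPKM in pMSCs, against 5.04 to 7.30 FPKM in iwatMSCs. Total FPKM per library was 437894 to 458616, and the depth in reads is unknown because the table holds no counts.

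Galectins bind beta-galactosides, above all N-acetyllactosamine, on glycoproteins and glycolipids. They are made in the cytosol without a signal peptide and leave the cell by an unconventional route, and outside it they crosslink receptors into lattices and take part in cell adhesion, immune regulation and fibrosis. Prototype galectins such as galectin-1 have a single carbohydrate recognition domain and act as dimers, the chimera type galectin-3 joins its domain to a long N-terminal tail through which it oligomerises, and the tandem-repeat galectins 4, 8 and 9 carry a pair of different domains on 1 chain. Inside the cell, galectins 3, 8 and 9 gather on damaged endosomes and lysosomes whose sugars have become exposed to the cytosol.

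The sugar-binding site separates the galectins from Lgals3bp. It is part of what makes a gene a galectin, so the search below describes these genes and tests nothing. The coding sequences (GENCODE M21, genome build GRCm38) were searched for a motif of this site. The motif was His, any residue, Asn, Pro and Arg, then a stretch of varying length, then Trp, Gly, any residue and Glu. The search found 1 window in Lgals1 and in Lgals3, 2 windows in each of Lgals4, Lgals8 and Lgals9, and 0 windows in Lgals3bp. The windows of the galectins with a mean of at least 1 FPKM are shown because they are what these transcripts have in common. They run 5′ to 3′ on the coding strand, each within a single exon. Capitals mark the codons for His, Asn, Pro, Arg, Trp, Gly and Glu of the motif.
Lgals1, chr15:78929676-78929759, plus strand: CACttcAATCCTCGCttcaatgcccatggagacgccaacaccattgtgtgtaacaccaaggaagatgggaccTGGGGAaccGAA
Lgals3, chr14:47384642-47384722, plus strand: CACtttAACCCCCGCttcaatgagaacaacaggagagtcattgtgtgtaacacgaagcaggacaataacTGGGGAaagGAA
Lgals8, first domain, chr13:12454813-12454887, minus strand: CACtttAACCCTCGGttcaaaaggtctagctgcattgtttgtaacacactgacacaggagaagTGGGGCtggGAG
Lgals8, second domain, chr13:12447195-12447266, minus strand: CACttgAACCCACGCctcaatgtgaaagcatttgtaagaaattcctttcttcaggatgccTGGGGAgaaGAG
Lgals9, first domain, chr11:78973066-78973140, minus strand: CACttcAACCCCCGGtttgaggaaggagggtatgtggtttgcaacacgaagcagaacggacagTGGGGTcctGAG
Lgals9, second domain, chr11:78965743-78965814, minus strand: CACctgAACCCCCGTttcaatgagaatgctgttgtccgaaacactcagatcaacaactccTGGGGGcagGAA
The stretch between the capitals differs in length as well as in sequence, from 84 bases for the whole window of Lgals1 to 72 bases for the second windows of Lgals8 and Lgals9. The coding sequences held 135 codons before the stop in Lgals1, 264 in Lgals3, 316 in Lgals8, 322 in Lgals9-202 and 577 in Lgals3bp.

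Lgals1 was by far the most abundant galectin transcript in both MSC populations and ranked 14 among all genes by mean FPKM. Galectin-1 is a prototype galectin secreted by many stromal cells and known for dampening T cell responses. The gene (ENSMUSG00000068220) lies on chr15:78926725-78930465, plus strand. Its level was 2438, 2434, 2479 and 2345 FPKM in pMSC replicates 1 to 4, against 2671, 2590.3, 3020.5 and 2876 FPKM in iwatMSC replicates 1 to 4. Every iwatMSC library was thus above every pMSC library, although the gap was small beside the level. The means were 2424 ± 56.7 in pMSCs and 2789 ± 195 FPKM in iwatMSCs (SD, n = 4 each), and the difference was -0.20 ± 0.07 on the log2(FPKM + 1) scale (pMSC minus iwatMSC, ± SE). Processed pseudogenes of Lgals1 carry near-identical sequence, and the deposited values for them reached at most 0.163 FPKM.

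The FPKM of Lgals1 was divided between 2 transcripts. Lgals1-201 encodes galectin-1 and had 1599, 1655, 1526 and 1579 FPKM in pMSCs, against 1742, 2581, 2011 and 1908 FPKM in iwatMSCs. Lgals1-202 carries an extra exon of 103 bases (chr15:78928565-78928667) and is annotated as a target of nonsense-mediated decay, the pathway that degrades messages with an early stop codon. The exon is shown up to that stop, in capitals, because it is what separates the transcripts.
Lgals1-202 extra exon, chr15:78928565-78928583, plus strand: acagggtctccttataTAG
Lgals1-202 had 840, 779, 953 and 765 FPKM in pMSCs, against 929, 9.48, 1010 and 968 FPKM in iwatMSCs. Its share of the Lgals1 FPKM was 32.0% to 38.5% in the 4 pMSC libraries and 33.4% to 34.8% in iwatMSC replicates 1, 3 and 4, but 0.366% in iwatMSC replicate 2. That library had the highest Lgals1-201 level and, as summed FPKM, the lowest gene level of the iwatMSCs. With each transcript weighted by its length, replicate 1 was the lowest iwatMSC library instead, at 2471 FPKM, against 2588 FPKM in replicate 2. The log2 difference of the gene was -0.36 where only protein-coding transcripts were summed, against -0.20 with both.

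Lgals3 was lower in pMSCs, with the largest log2 difference of the 5 members that were tested. Galectin-3 is the chimera type member, made by macrophages, fibroblasts and epithelia, and is known for profibrotic and adipose inflammatory roles. The gene (ENSMUSG00000050335) lies on chr14:47367751-47386160, plus strand, and ranked 231 by mean FPKM. It had 96.3, 98.4, 150 and 102 FPKM in pMSCs, against 427, 405, 391 and 385 FPKM in iwatMSCs. The groups stood well apart, and within the pMSCs replicate 3 was above the other 3 libraries. The means were 112 ± 25.6 in pMSCs and 402 ± 18.7 FPKM in iwatMSCs (SD, n = 4 each), so that the iwatMSC mean was 3.6 times the pMSC mean. The log2 difference was -1.86 ± 0.13 (SE) and stayed between -2.01 and -1.80 when each library was left out in turn.

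**Figure D1:**
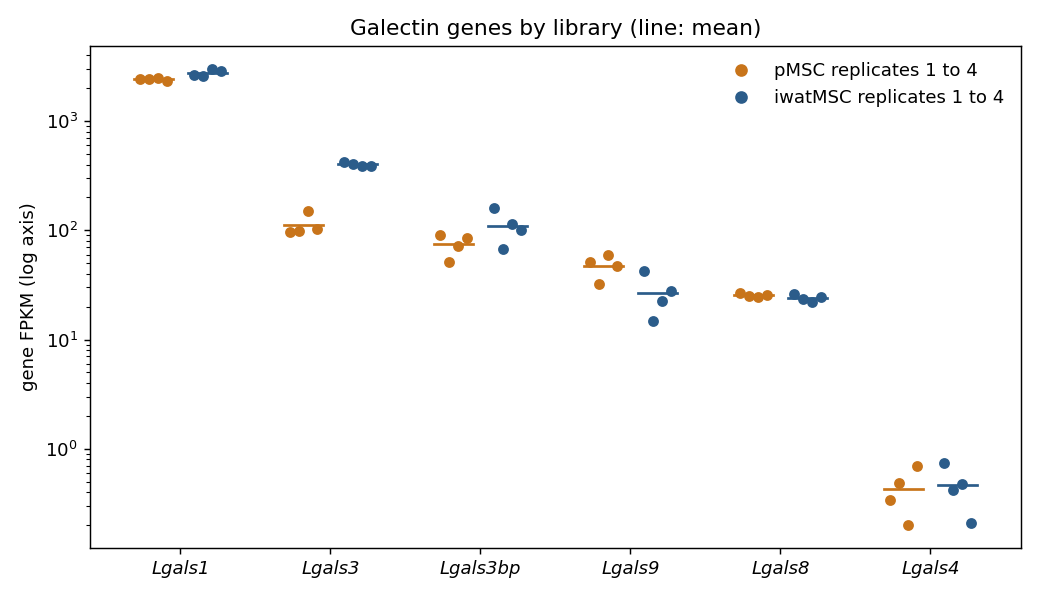
Gene FPKM (log axis) of the 6 genes in each library, with pMSC replicates 1 to 4 to the left of iwatMSC replicates 1 to 4 for each gene, and bars at the group means. Lgals3 was at 96.3 to 150 in pMSCs and 385 to 427 FPKM in iwatMSCs, whereas Lgals8 overlapped and Lgals4 was below 1 FPKM in every library.

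Lgals3 had 4 transcripts with a mean of at least 1 FPKM. Lgals3-204, the main one, had 72.9, 87.4, 136 and 79.5 FPKM in pMSCs, against 310, 287, 298 and 285 FPKM in iwatMSCs, a log2 difference of -1.68 ± 0.18 (SE). Lgals3-201 had 14.6, 1.98, 3.23 and 8.50 FPKM in pMSCs, against 70.8, 64.1, 53.6 and 62.2 FPKM in iwatMSCs, a log2 difference of -3.27 ± 0.49 (SE). Lgals3-202 had 8.22, 8.40, 9.05 and 12.1 FPKM in pMSCs, against 39.2, 48.3, 36.4 and 32.3 FPKM in iwatMSCs, a log2 difference of -1.94 ± 0.16 (SE). Groups were separate for all of these. Lgals3-203 was rare, at 0.0315 to 0.578 in pMSCs and 0.964 to 5.80 FPKM in iwatMSCs, with a log2 difference of -1.66 ± 0.36 (SE), and it reached a mean of 1 FPKM only through iwatMSCs. Lgals3-201, Lgals3-203 and Lgals3-204 share a coding length of 792 bases and differ in their first exon and in the end of their last exon. Lgals3-201 made up 2.02% to 15.2% of the Lgals3 FPKM in pMSCs and 13.7% to 16.6% in iwatMSCs, so that its share varied far more among the pMSC libraries.

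**Figure D2:**
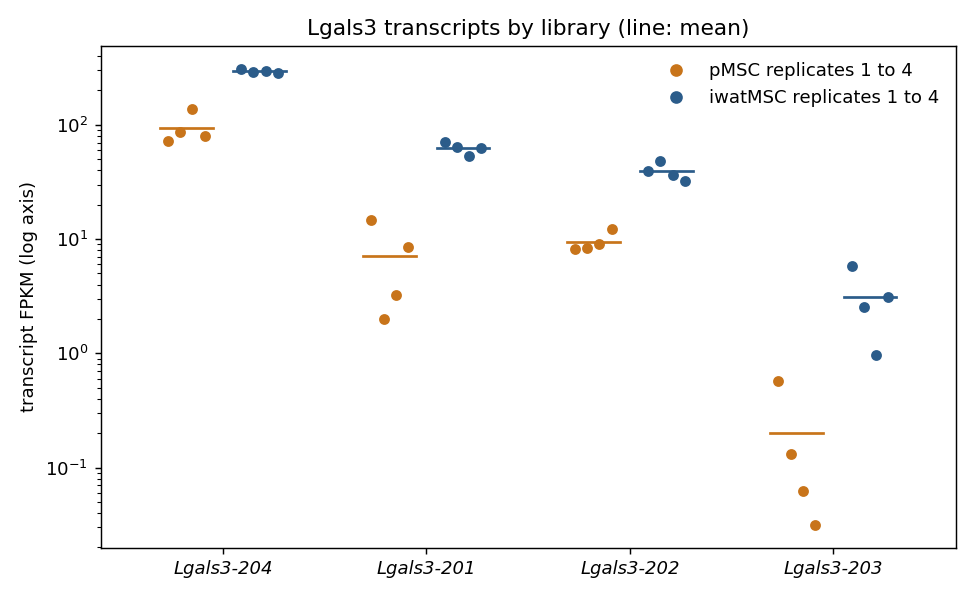
FPKM (log axis) of the 4 Lgals3 transcripts in each library, pMSC replicates left of iwatMSC replicates, with bars at the group means. Lgals3-204 was at 72.9 to 136 in pMSCs and 285 to 310 FPKM in iwatMSCs, and Lgals3-201 at 1.98 to 14.6 in pMSCs and 53.6 to 70.8 FPKM in iwatMSCs.

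Markers of macrophages, which also make galectin-3, were read beside these values. The 12 myeloid markers summed to 5.10 to 7.91 in pMSCs and 9.27 to 14.2 FPKM in iwatMSCs, and 6 of them, Adgre1, Itgam, C1qa, C1qb, C1qc and Tyrobp, were listed at 0 in all 8 libraries. The 2 with a mean of at least 1 FPKM were Cd68, a lysosomal protein of macrophages that other cells also make, and Cd14. Cd68 averaged 2.45 ± 1.16 in pMSCs and 8.30 ± 1.94 FPKM in iwatMSCs, a log2 difference of -1.46 ± 0.23 (SE, adjusted p = 0.00232, limma), whereas Cd14 averaged 2.47 in pMSCs and 2.52 FPKM in iwatMSCs. Lyz2, the lysozyme of macrophages, ran the other way, with 0.815 to 1.72 FPKM in pMSCs, against 0 to 0.285 FPKM in iwatMSCs, and its mean was too low for testing. The part of such cells in the Lgals3 values was not tested beyond these levels. In bulk libraries, fewer cells of a type and less RNA per cell cannot be told apart.

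Lgals3bp overlapped between the organs and varied widely between replicates. It encodes galectin-3-binding protein, a heavily glycosylated secreted scavenger receptor family protein that is known as an interferon-induced gene, and it lies on chr11:118392751-118402092, minus strand (ENSMUSG00000033880). Its gene level was 91.6, 51.8, 71.3 and 85.5 FPKM in pMSCs, against 160, 67.6, 115 and 100 FPKM in iwatMSCs. The groups overlapped, with iwatMSC replicate 2 below 3 of the 4 pMSC libraries. The means were 75.1 ± 17.7 in pMSCs and 111 ± 38.4 FPKM in iwatMSCs (SD, n = 4 each), and the log2 difference was -0.52 ± 0.26 (SE).

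The transcript make-up of Lgals3bp differed sharply between single libraries. Lgals3bp-201 has the full coding sequence and had 13.8, 47.9, 70.6 and 79.2 FPKM in pMSCs, against 150, 62.3, 15.8 and 93.4 FPKM in iwatMSCs. Lgals3bp-205, a transcript of 686 bases, had 76.7, 2.78, 0 and 4.77 FPKM in pMSCs, against 8.28, 4.17, 98.3 and 5.46 FPKM in iwatMSCs. It therefore held 83.8% of the gene's FPKM in pMSC replicate 1 and 85.7% in iwatMSC replicate 3, and 0% to 6.17% in the other 6 libraries. Both of its exons, of 31 and 655 bases, lie inside exons of Lgals3bp-201, so that few reads other than those across its junction belong to it alone. Because it is short, the same reads give it more FPKM than Lgals3bp-201, and the gene level was therefore also computed with each transcript weighted by its length. It then was 36.7, 49.1, 70.8 and 81.0 FPKM in pMSCs, against 153, 63.9, 44.9 and 95.5 FPKM in iwatMSCs. The groups still overlapped, and iwatMSC replicate 3 became the lowest iwatMSC library in place of replicate 2.

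**Figure D3:**
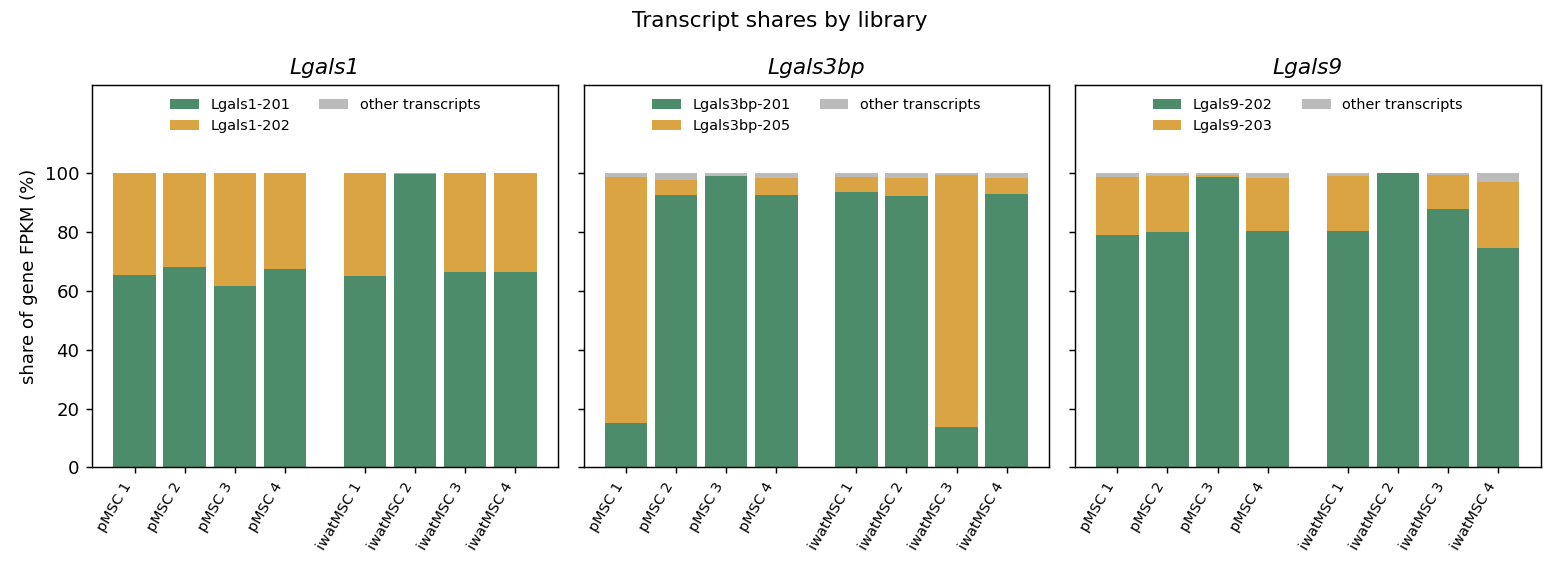
Share of each gene's FPKM (%) by transcript in the 4 pMSC libraries followed by the 4 iwatMSC libraries, stacked for Lgals1, Lgals3bp and Lgals9. Lgals1-202 was at 0.366% in iwatMSC replicate 2, and Lgals3bp-205 held 83.8% in pMSC replicate 1 and 85.7% in iwatMSC replicate 3.

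**Figure D4:**
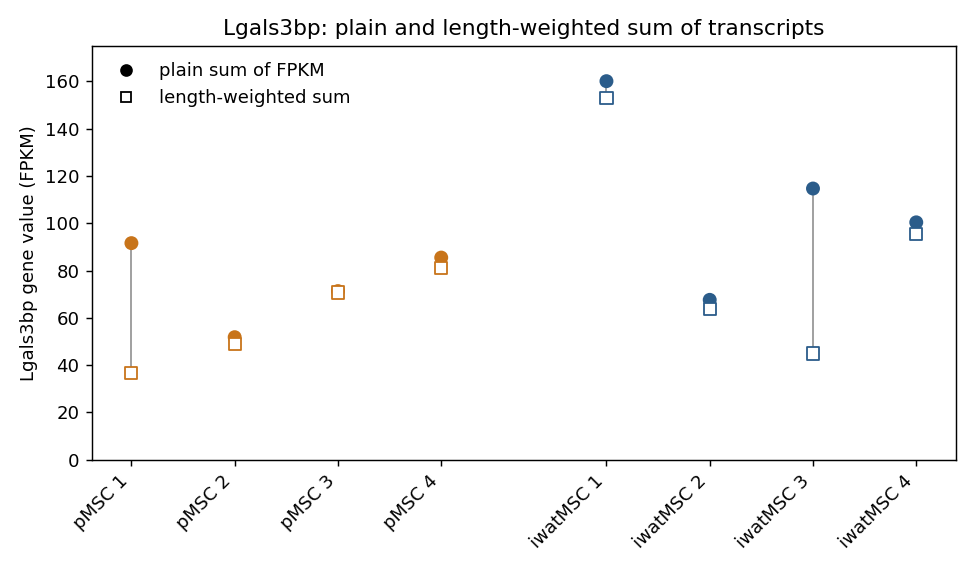
Lgals3bp level (FPKM) in each library as the plain sum of transcripts (filled circles) and as the length-weighted sum (open squares), pMSC replicates on the left. The weighting lowered pMSC replicate 1 to 36.7 FPKM, against 91.6 FPKM unweighted, and iwatMSC replicate 3 to 44.9 FPKM, against 115 FPKM unweighted.

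Lgals9 had the higher mean in pMSCs, but the groups overlapped. Galectin-9 is a tandem-repeat galectin known as an eosinophil attractant and a ligand of the immune receptor TIM-3, and its gene is known to respond to interferon. The gene (ENSMUSG00000001123) lies on chr11:78962974-78984946, minus strand, and ranked 2084 by mean FPKM. It had 51.4, 32.3, 59.1 and 46.9 FPKM in pMSCs, against 42.6, 14.7, 22.7 and 27.6 FPKM in iwatMSCs. Replicate 1 of the iwatMSCs was above replicate 2 of the pMSCs. The means were 47.4 ± 11.3 in pMSCs and 26.9 ± 11.7 FPKM in iwatMSCs (SD, n = 4 each), with a log2 difference of 0.86 ± 0.29 (SE) that stayed between 0.61 and 1.11 when each library was left out in turn.

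Its transcripts differ in the linker between the sugar-binding domains. Lgals9-202, with a coding length of 966 bases, had 40.5, 25.9, 58.5 and 37.6 FPKM in pMSCs, against 34.2, 14.7, 19.9 and 20.6 FPKM in iwatMSCs. Lgals9-203, with a coding length of 1059 bases, had 10.2, 6.13, 0.272 and 8.57 FPKM in pMSCs, against 7.97, 0.0043, 2.60 and 6.17 FPKM in iwatMSCs. The longer form adds an exon of 93 bases, which is shown because it sets the distance between the domains whose windows are given above.
Lgals9-203 linker exon, chr11:78969714-78969806, minus strand: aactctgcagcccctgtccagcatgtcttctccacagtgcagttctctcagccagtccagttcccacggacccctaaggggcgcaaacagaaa
Lgals9-203 made up 0.460% to 19.9% of the Lgals9 FPKM in pMSCs and 0.0292% to 22.3% in iwatMSCs. It was thus nearly missing from a single library of each group and overlapped widely between them.

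The promoters were read because Lgals9 and Lgals3bp are both known as interferon-responsive. RefSeq windows of 300 bases (GRCm38.p6, 250 before to 50 after the start) were matched for 5 of the 6 genes, Lgals3, Lgals3bp, Lgals4, Lgals8 and Lgals9. The interferon response element, written GAAA, any 2 bases and GAAA and searched on both strands, occurred in 3.44% of 32851 such windows, and among the 5 genes in Lgals9 with 2 matches. The first begins 55 bases before the start and stands in capitals in the stretch below, read on the strand of the gene, and the second begins 15 bases after the start.
Lgals9 promoter, chr11:78984947-78985174, minus strand: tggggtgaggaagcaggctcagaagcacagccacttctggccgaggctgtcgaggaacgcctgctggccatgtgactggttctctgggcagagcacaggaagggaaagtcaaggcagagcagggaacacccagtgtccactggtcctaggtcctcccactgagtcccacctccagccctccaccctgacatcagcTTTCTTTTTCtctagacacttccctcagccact
The GC box GGGCGG, in 35.7% of all windows, had 2 matches in Lgals3 and 1 in Lgals4. Neither TATAAA, in 13.6% of windows, nor the AP-1 site TGANTCA, in 7.81%, was found in the 5 windows. These matches are letters in a window and were not tested as sites. The windows follow RefSeq starts and do not sit equally on the expressed transcripts. The Lgals8 window lies wholly before the start of the most abundant Lgals8 transcript. The Lgals3bp window reaches less far before the start of its most abundant transcript than the Lgals9 window does. The lack of an interferon response element in Lgals3bp and Lgals8 therefore cannot be compared directly with Lgals9.

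Lgals8 was even across all 8 libraries. Galectin-8 is a tandem-repeat galectin that binds integrins and recruits the autophagy receptor NDP52 to damaged vesicles. The gene (ENSMUSG00000057554) lies on chr13:12439415-12464944, minus strand, and had 26.7, 25.0, 24.6 and 25.7 FPKM in pMSCs, against 25.9, 23.4, 22.0 and 24.5 FPKM in iwatMSCs. The ranges overlapped and the spread was narrow. The means were 25.5 ± 0.926 in pMSCs and 23.9 ± 1.65 FPKM in iwatMSCs (SD, n = 4 each), with a log2 difference of 0.09 ± 0.07 (SE). Lgals8-201 carried most of it, at 18.6 to 21.1 in pMSCs and 16.5 to 19.6 FPKM in iwatMSCs. Lgals8-208, at 1.03 to 2.67 in pMSCs and 1.60 to 2.85 FPKM in iwatMSCs, ends an exon between the domains 27 bases later, as shown.
Lgals8-208 longer exon end, chr13:12453258-12453284, minus strand: gcaagtgcccttccacacacactgggg
Lgals8-205 and Lgals8-210, which retain introns, averaged 1.27 and 1.12 FPKM in pMSCs and 1.0 and 1.23 FPKM in iwatMSCs. The last 875 bases of Lgals8 overlap Heatr1 on the opposite strand, which averaged 12.1 FPKM, and because the strand setting is not given in the sources used here, reads of the genes cannot be told apart there.

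Lgals4 was barely detected in both populations. Galectin-4 is a tandem-repeat galectin of gut epithelium, and its gene (ENSMUSG00000053964) lies on chr7:28833854-28841708, plus strand. It had 0.340, 0.485, 0.201 and 0.701 FPKM in pMSCs, against 0.746, 0.420, 0.472 and 0.208 FPKM in iwatMSCs. The transcripts behind it differed from library to library. The coding transcript Lgals4-201 was listed at 0, 0, 0.141 and 0.204 FPKM in pMSCs and at 0, 0.348, 0.290 and 0.0562 FPKM in iwatMSCs, and in most libraries transcripts that retain introns held the larger part. The mean of the gene was under the 1 FPKM required for testing, so that 5 of the 6 genes entered the fit across all genes.

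Of these 5 genes, limma called Lgals3 lower in pMSCs and none higher (adjusted p under 0.05), and the other 4 were not called. Over all 13345 genes tested, 19.4% were called, 9.02% higher and 10.4% lower. Groups did not overlap for Lgals1 and Lgals3, both lower in pMSCs, against 24.4% of all genes tested, 10.9% with pMSCs above and 13.4% with pMSCs below. Of the 14 transcripts of these genes with a mean of at least 1 FPKM, the 4 of Lgals3, with Lgals3-203 as limited above, were called lower and 0 higher, against 5.54% of 24686 transcripts, 2.79% higher and 2.75% lower. Since the genes were chosen on this contrast, nothing is read from these counts.

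These genes had the same order of mean abundance in the 2 populations. By mean FPKM per gene it ran Lgals1, Lgals3, Lgals3bp, Lgals9, Lgals8 and Lgals4 in pMSCs, and the same in iwatMSCs. Neighbours in this order had separate ranges, except Lgals3bp and Lgals9 in pMSCs (51.8 to 91.6 FPKM against 32.3 to 59.1 FPKM) and Lgals9 and Lgals8 in iwatMSCs (14.7 to 42.6 FPKM against 22.0 to 25.9 FPKM). Lgals1 exceeded the others by the widest margin in both.

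Variation between replicates of an organ was shared by some of these genes. As deviations from the group means over the 8 libraries, Lgals3bp and Lgals9 correlated with r = 0.875, the highest of the 10 pairs, and with r = 0.617 once length-weighted. Lgals1 and Lgals8 correlated with r = -0.496, the lowest pair. Among 8214 protein-coding genes with a mean of at least 5 FPKM, those most like Lgals9 by the same measure were Cab39l (0.986), Itm2b (0.985) and Cpt2 (0.978), and those most like Lgals3bp were Arnt (0.975), St6galnac6 (0.968) and Atg4b (0.959). For Lgals3 they were Snapin (0.990), Ammecr1 (0.989) and Rab34 (0.975), for Lgals8 Peli1 (0.975), Fbxo8 (0.970) and Mycbp2 (0.962), and for Lgals1 Ncam1 (0.940), Ikbkg (0.938) and Lrrc75a (0.936). These values describe 8 libraries that share organs, culture and table, and the highest of many genes lie near 1 by selection. Snapin, Ammecr1 and Rab34, like Lgals3 itself, stood above the other pMSCs in pMSC replicate 3. Snapin had 29.75 FPKM there, against 12.21 to 14.31 FPKM in the other pMSCs. The Lgals3 correlations thus rest largely on that library.

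Among the remaining family genes, Lgalsl, which encodes a galectin-related protein that lacks lactose binding, was lower in pMSCs. It had 12.9, 12.1, 16.6 and 12.6 FPKM in pMSCs, against 30.5, 27.6, 25.6 and 25.4 FPKM in iwatMSCs, with no overlap. The log2 difference was -0.96 ± 0.11 (SE, adjusted p = 0.000275, limma). Lgals7, a galectin of stratified epithelia, averaged 0.827 ± 0.294 in pMSCs and 1.28 ± 0.168 FPKM in iwatMSCs and was not called (log2 difference -0.33 ± 0.13, adjusted p = 0.116, limma). Lgals2, a prototype galectin of the gut, was listed at 1.0, 0.648, 0.743 and 0.742 FPKM in pMSCs and at 0.619, 0, 0 and 0 FPKM in iwatMSCs. Lgals12, the galectin of mature adipocytes, was at most 0.0690 FPKM in any library, and Grifin, a lens galectin-like gene, was listed at 0 in all 8.

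Some enzymes that build galectin ligands were among the genes higher in pMSCs. This list and the binding, membrane damage and interferon lists below were written with other results of these data known. Their counts and p-values are therefore a description. Of 25 listed genes of N-acetyllactosamine synthesis, branching and capping, 20 were tested with limma, 6 rose and 0 fell (11 at an unadjusted p under 0.05 in either direction), with a median log2 difference of 0.22, against -0.03 over all genes, of which 9.02% rose and 10.4% fell. With protein-coding transcripts only or without iwatMSC replicate 2, 5 rose and 1 fell. B3gnt2, the main enzyme of poly-N-acetyllactosamine extension, averaged 11.9 ± 0.970 in pMSCs and 3.63 ± 1.83 FPKM in iwatMSCs (log2 difference 1.60 ± 0.32, SE, adjusted p = 0.00814, limma). Gcnt2, which branches these chains, averaged 10.4 ± 0.755 in pMSCs and 4.68 ± 0.246 FPKM in iwatMSCs (log2 difference 1.0 ± 0.08, adjusted p = 3.23e-05). St6gal1, which caps the chains with a sialic acid linkage known to block galectin-1, averaged 7.72 ± 2.36 in pMSCs and 3.48 ± 0.408 FPKM in iwatMSCs (log2 difference 0.92 ± 0.18, adjusted p = 0.00682). B3gnt8, a partner of B3gnt2, averaged 1.80 ± 0.0196 in pMSCs and 0.761 ± 0.142 FPKM in iwatMSCs (log2 difference 0.67 ± 0.09, adjusted p = 0.00111). The list thus joins enzymes that make galectin ligands and enzymes that mask them, and St3gal6 and Fut8 were the other 2 that rose. Without pMSC replicates 1 and 2, the libraries with most acinar transcripts, 4 genes rose, and B3gnt2 kept its log2 difference (1.54) but not its call (adjusted p = 0.0741, limma). With the unequal-variance test, B3gnt2 (adjusted p = 0.115) and St6gal1 (adjusted p = 0.0821) were not called.

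Some glycoproteins known to bind galectins, of the cell surface, the lysosome or the matrix, also differed. Of 23 listed genes, 20 were tested, 8 rose and 1 fell in pMSCs, against 9.02% and 10.4% of all genes, with a median log2 difference of 0.27, against -0.03 over all genes. Cspg4, the NG2 proteoglycan of pericytes and a galectin-3 ligand, averaged 6.06 ± 1.52 in pMSCs and 1.02 ± 0.161 FPKM in iwatMSCs (log2 difference 1.78 ± 0.15, SE, adjusted p = 6.13e-05, limma). Alcam, an adhesion molecule that galectin-8 binds, averaged 6.29 ± 0.583 in pMSCs and 18.1 ± 4.17 FPKM in iwatMSCs (log2 difference -1.36 ± 0.16, adjusted p = 0.000486). Itga1, a chain of a collagen-binding integrin, averaged 2.13 ± 0.337 in pMSCs and 0.701 ± 0.207 FPKM in iwatMSCs (log2 difference 0.88 ± 0.13, adjusted p = 0.00136), and Nrp1, a semaphorin and VEGF receptor, averaged 34.0 ± 5.42 in pMSCs and 18.4 ± 2.11 FPKM in iwatMSCs (log2 difference 0.84 ± 0.13, adjusted p = 0.00187). The integrin chains Itgb1, Itga3, Itga5 and Itga7 and the transferrin receptor Tfrc made up the rest. Itga1, Itga3 and Itga7 averaged under 1 FPKM in iwatMSCs and entered the fit through their pMSC level, as B3gnt8 did. Without pMSC replicates 1 and 2, 5 genes rose and 1 fell.

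The membrane damage response, in which galectins 3, 8 and 9 take part, gave a single call. Of 16 listed genes, all tested with limma, 1 rose and 0 fell (6 at an unadjusted p under 0.05 in either direction), and the median log2 difference was -0.08. The gene was Becn1, an autophagy initiation factor, at 21.4 ± 2.81 in pMSCs and 17.1 ± 0.503 FPKM in iwatMSCs (log2 difference 0.30 ± 0.09, SE, adjusted p = 0.0461, limma). The call held in 6 of 18 alternatives, and with protein-coding transcripts only the log2 difference was -0.31. The background was 19.4% called.

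Interferon-stimulated genes were read beside Lgals3bp and Lgals9. Of 16 listed genes, 13 were tested with limma, 0 rose and 4 fell in pMSCs (7 at an unadjusted p under 0.05), and all 13 differences were negative, with a median of -0.92. Over all genes 10.4% fell. Ifit1 averaged 0.844 FPKM in pMSCs and entered the fit through its iwatMSC level. Ifit1, an antiviral RNA-binding protein, had 0.991, 0.645, 0.794 and 0.947 FPKM in pMSCs, against 11.2, 1.85, 8.29 and 20.4 FPKM in iwatMSCs (log2 difference -2.31 ± 0.50, SE, adjusted p = 0.0122, limma). Isg15, a ubiquitin-like modifier, had 3.31, 1.41, 2.81 and 3.33 FPKM in pMSCs, against 22.1, 3.88, 11.6 and 28.4 FPKM in iwatMSCs (log2 difference -1.98 ± 0.50, adjusted p = 0.0232). Usp18, which removes ISG15, averaged 1.41 ± 0.638 in pMSCs and 6.79 ± 4.56 FPKM in iwatMSCs (log2 difference -1.52 ± 0.42, adjusted p = 0.0344), and Irf7, an interferon regulatory factor, averaged 1.90 ± 0.405 in pMSCs and 6.50 ± 3.47 FPKM in iwatMSCs (log2 difference -1.25 ± 0.31, adjusted p = 0.0225). Lgals9 had the opposite sign (0.86) and Lgals3bp the same sign (-0.52). Replicate 2 was the lowest iwatMSC library for these 4 genes and for Lgals3bp and Lgals9 as summed FPKM, and replicate 2 was the lowest pMSC library for the same 6. Length-weighted Lgals3bp was instead lowest in iwatMSC replicate 3 and pMSC replicate 1. Among the stromal markers, iwatMSC replicate 2 was also lowest for Col1a1, Col1a2, Pdgfra, Pdgfrb and Thy1, but not for Dcn, Lum and Ly6a. The low position of that library was thus not particular to these genes. The count rested on single libraries, with 8 genes lower without iwatMSC replicate 2, 2 without iwatMSC replicate 3, and 1 without iwatMSC replicate 4 or pMSC replicate 2, and without pMSC replicates 1 and 2 limma called 0, with 4 at an unadjusted p under 0.05.

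**Figure D5:**
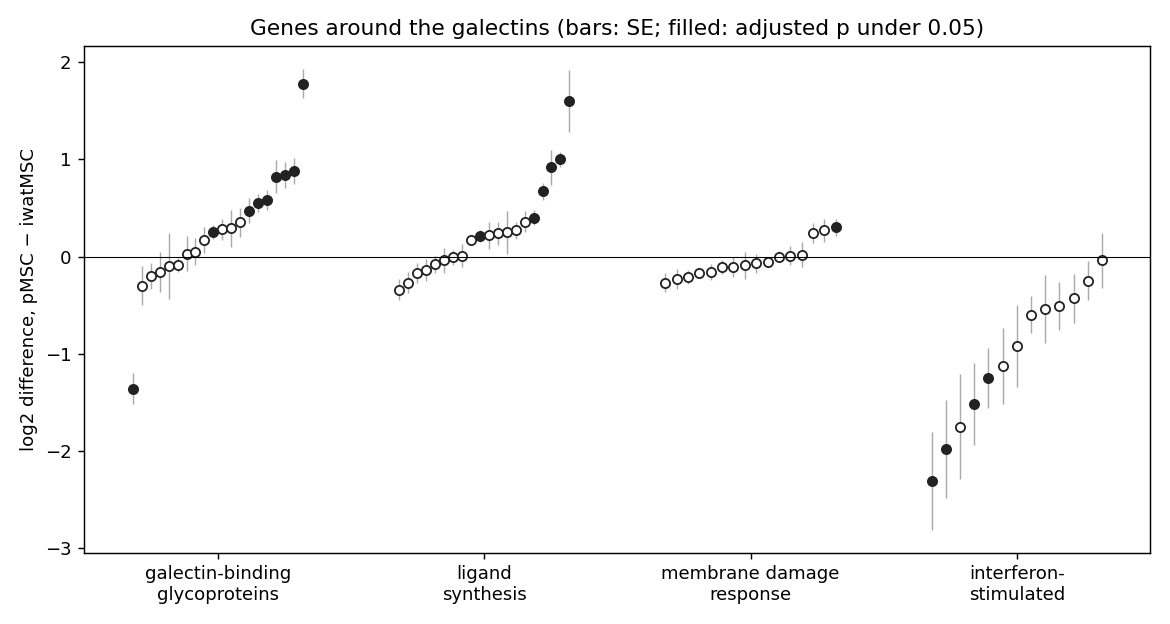
Log2 difference of FPKM + 1 (pMSC minus iwatMSC) for each tested gene of the binding glycoprotein, ligand synthesis, membrane damage and interferon-stimulated lists, left to right. Filled points mark genes called by limma, vertical bars show the SE, and the horizontal line lies at 0. The medians, not drawn, were 0.27, 0.22, -0.08 and -0.92 in that order, and the interferon-stimulated genes all lay below 0.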

How the data were processed

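RNA of 4 pMSC and 4 iwatMSC libraries was sequenced, and the authors aligned the reads with STAR 2.7.0f to GRCm38.p6 after FastQC 0.11.8 and used StringTie 1.3.6 to obtain the deposited FPKM per Ensembl transcript. The annotation release and the strand setting are not given in the sources used here. The deposited FPKM carry no depth, so that precision rests on the replicates, and short or overlapping transcripts can exchange signal within a gene. Transcript IDs were matched to GENCODE M21 (99.88%), and FPKM were summed per gene (unmatched transcripts held at most 0.0505% of a library).

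Genes with a mean of at least 1 FPKM were tested as log2(FPKM + 1) with limma 3.58.1 (R 4.3.3), with a trend and Benjamini-Hochberg adjustment over all genes, as pMSC minus iwatMSC, and called at an adjusted p under 0.05. The fit was tested on simulated data. The 6 genes and the other lists were chosen with earlier results of these data known, so the 6 genes have no p. Libraries carry no mark of separate cultures or paired animals, and p-values then measure only the spread between these libraries. Genes named are the 6 members, their transcripts with a mean of at least 1 FPKM or the most abundant one, every other family gene in the table, up to 4 called genes of each list with the largest absolute log2 difference, and the 3 genes most like each member. Further genes were named after their values were seen. Alternatives were the pseudocount (0.1 and 5), the filter (none, 5 FPKM), TPM, median-of-ratios scaling, an unequal-variance test and protein-coding transcripts only. Others were each library left out, pMSC replicates 1 and 2 left out together and, chosen after seeing the data, length-weighted gene values. The unequal-variance test used log2(FPKM + 1) with Benjamini-Hochberg adjustment, whereas the study applied its Welch test to single transcripts without adjustment. Sequences came from GENCODE M21 transcripts and RefSeq promoters. Micro-RNA data were not analysed here.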

Additional observations from a re-analysis of the deposited data

Results flagged for a closer look

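In 10 of 74 sets of 4 libraries (a gene or transcript in 1 group), the highest or lowest library stood apart from the other 3 by Dixon's criterion. Chance alone meets it in about 1 in 20 independent sets of normally distributed values. The sets here were raw FPKM and counted genes beside their own transcripts, so the 10 are not read against that rate. Lgals3 was 150 FPKM in pMSC replicate 3 and 96.3 to 102 FPKM in the other pMSCs. Lgals1-202 was 9.48 FPKM in iwatMSC replicate 2 and 929 to 1010 FPKM in the other iwatMSCs. Lgals3bp-205 was 76.7 FPKM in pMSC replicate 1 and 0 to 4.77 FPKM in the other pMSCs, and it was 98.3 FPKM in iwatMSC replicate 3 and 4.17 to 8.28 FPKM in the other iwatMSCs. In iwatMSC replicate 1, Lgals2 was 0.619 FPKM and listed at 0 in the other iwatMSCs, Lgals7 was 1.53 FPKM and 1.17 to 1.21 FPKM in the others, and Alcam was 11.9 FPKM and 19.7 to 20.9 FPKM in the others. In iwatMSC replicate 3, B3gnt2 was 0.906 FPKM and 4.28 to 4.77 FPKM in the others, and Cspg4 was 1.26 FPKM and 0.909 to 0.958 FPKM in the others. Becn1 was 17.8 FPKM in iwatMSC replicate 2 and 16.8 to 16.9 FPKM in the others.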

How the results depend on the processing

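The log2 differences of Lgals1, Lgals3, Lgals3bp, Lgals8 and Lgals9 kept their sign in every alternative run, and with single libraries left out they spanned -0.23 to -0.16, -2.01 to -1.80, -0.73 to -0.32, 0.05 to 0.12 and 0.61 to 1.11 in that order. Lgals1 moved to -0.36 with protein-coding transcripts only. Over all genes, 2589 were called, against 1428 with the unequal-variance test and 1468 without pMSC replicates 1 and 2. Over all transcripts, 1367 were called, against 761 and 534 in these alternatives and 864 to 1518 with single libraries left out. The 9 called binding genes became 5 with a filter at 5 FPKM. The single membrane damage call became 2 with length-weighted gene values, 0 without pMSC replicates 1 and 2 (limma, 4 at an unadjusted p under 0.05) and 0 to 2 with single libraries left out, and with the unequal-variance test, no filter or protein-coding transcripts only the 1 call was a gene lower in pMSCs. The 4 interferon-stimulated calls became 2 with no filter, 2 with a filter at 5 FPKM, 0 with the unequal-variance test (5 at an unadjusted p under 0.05), 0 without pMSC replicates 1 and 2 (limma, 4 at an unadjusted p under 0.05) and 1 to 8 with single libraries left out. Becn1 turned to -0.31 with protein-coding transcripts only. The causes were not tested. Called genes were 46.5% higher in pMSCs, against 54.6% after rescaling to TPM. No paired analysis was possible because the library numbers of pMSCs and iwatMSCs are not shared. The FPKM give no depth, so that levels below 1 FPKM, such as Lgals4 and Lgals2, cannot be given a limit of detection.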
